A study of Mus musculus with 4 samples.

Results

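The collagen genes of mouse are described here in CD45-negative, CD31-positive cells of the spleen. The cells were sorted by a reporter of Ackr4, the gene of an atypical chemokine receptor that takes up chemokines without classical signalling. A gene was counted as a collagen when a non-control probe of the array carried its name in the form Col, a number, the letter a and a number. This took 67 probes of 43 genes, of 39429 probes and 30195 gene names in all. By the structures that their proteins form, 8 of the genes were basement membrane collagens, 11 were fibrillar and 24 were of other kinds.

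All cells came from spleens of Ackr4GFP/wt mice, which carry green fluorescent protein (GFP) at 1 copy of the Ackr4 locus and a wild-type copy beside it, so both groups had the same genotype. The ACKR4-positive group was made of DAPI-negative, CD45-negative, CD31-positive cells with GFP and the ACKR4-negative group of the same kind of cells without it. Each group was measured on 2 one-colour Agilent arrays, 1 from each of 2 independent sorts that pooled 2 to 3 mice. No treatment was given to the animals, as far as the labels say. The spleens had been digested with Dispase, Collagenase D and DNase I for 45 and then 20 minutes at 37 °C, and 6 to 20 ng of RNA was amplified and labelled for each array. Pooling leaves no value for a single animal, and GFP reports the activity of the locus rather than the receptor protein.

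Collagens are secreted or membrane-anchored proteins in which 3 chains wind into a helix. Glycine recurs at a fixed place in every triplet of the helical chain. Network-forming collagen IV, joined by collagens XV and XVIII, builds the basement membrane under vessels, whereas collagens I, III and V assemble into banded fibrils. In the spleen, endothelium of the red pulp sinuses rests on an interrupted basement membrane, and reticular fibres of fibroblastic cells form the scaffold of the pulp.

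Levels are given as log2 signal minus the 75th percentile of the array, so 0 stands for that percentile, which was a signal of 770 and 656 on the ACKR4-negative and 949 and 590 on the ACKR4-positive arrays of sorts 1 and 2. Between 54.9% and 58.3% of all probes were well above background. Spiked-in control RNA had a median signal of 837 on the ACKR4-negative array of sort 1 against 2749 to 3489 on the other arrays. Ackr4 itself stood at -7.53 and -7.50 on the ACKR4-negative arrays and at -0.21 and 2.55 on the ACKR4-positive arrays, which checks the labels. All 12 endothelial markers examined, among them Pecam1, Cdh5 and Tek, were well above background on all 4 arrays.

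A collagen gene could be tested when 1 of its probes gave a signal well above background throughout 1 group or both, and 22 of the 43 passed. They comprised 6 basement membrane, 6 fibrillar and 10 other collagens. Of the representative probes, 21 and 24 were well above background on the ACKR4-negative arrays, 23 and 17 on the ACKR4-positive arrays, and 14 on all 4. A gene was called when its Benjamini-Hochberg adjusted p from limma, taken over all 17362 tested genes, was under 0.05. In ACKR4-positive cells 2 collagens rose, Col23a1 and Col5a2, and 2 fell, Col18a1 and Col6a4. Over all tested genes 1.91% were called higher and 3.71% lower, together 5.62%. At an unadjusted p under 0.05, 5 collagens were higher and 5 lower, beside 7.12% and 9.13% of all tested genes. A gene had to be bright in at least 1 group to be tested, so the counts of collagens describe the ones that passed and not the whole family. In pooled sorted cells, fewer cells of a type and less RNA per cell cannot be told apart.

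The numbers of the sorts pair the arrays. With the sort as a block in the fit, 5 collagens were called higher and 6 lower, beside 6.75% and 8.55% of all tested genes, together 15.3%. Col4a5, Col3a1 and Col16a1 were added to the higher and Col5a1, Col13a1, Col6a3 and Col25a1 to the lower ones. Without the ACKR4-negative array of sort 1 the unblocked limma count of higher collagens was 0, with 387 of all tested genes called. At an unadjusted p under 0.05 it left 4 collagens higher and 4 lower, beside 4.35% and 6.67% of all tested genes. The adjusted count was 1 without the other ACKR4-negative array and 1 without the ACKR4-positive array of sort 1. Without the ACKR4-positive array of sort 2 it was 3, with Col16a1 added (adjusted p = 0.0374).

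**Figure D1:**
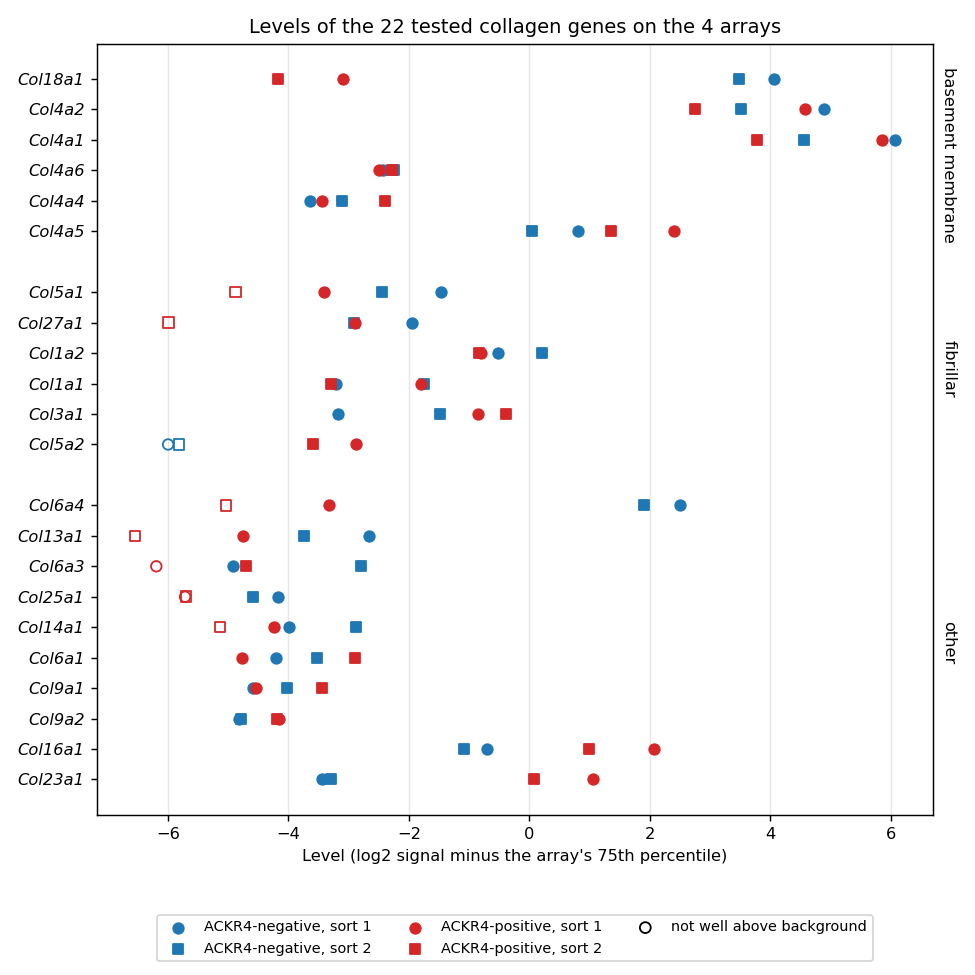
Level of each of the 22 tested collagen genes on the 4 arrays, as log2 signal minus the 75th percentile of the array, with genes grouped by class. Blue marks ACKR4-negative and red ACKR4-positive arrays, circles sort 1 and squares sort 2, and open marks a signal not well above background; Col18a1 and Col6a4 have both red marks far to the left of both blue marks, and Col23a1 has them to the right.

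Basement membrane collagens gave the largest difference of the family among the tested genes. Col18a1 encodes a proteoglycan core protein of vascular basement membranes, whose cleaved end is the angiogenesis inhibitor endostatin. Its levels were 4.06 and 3.47 on the ACKR4-negative arrays and -3.09 and -4.18 on the ACKR4-positive arrays. All 4 values were well above background and the groups lay far apart, with the lower value of each group in sort 2. The log2 difference of ACKR4-positive minus ACKR4-negative cells was -7.40 ± 0.49 (standard error of the fit, n = 2 per group; 95% interval -8.69 to -6.12; adjusted p = 0.0087), a 169-fold lower signal. With normexp background correction the difference was -6.29. The probe lies on chromosome 10 at 76514926 to 76514985 (mm9). A second probe at 76515790 to 76515849 gave -7.18 ± 0.49, so both probes placed the fall at a like size.

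The stretch before the start of Col18a1 is shown because this gene had that difference, and the one before Col6a4, the other collagen that fell, is shown with it. Both are RefSeq promoter windows on GRCm38.p6, trimmed to bases outside any annotated gene, on the minus strand, at chr10:77166531-77166780 and chr9:106096829-106096941. Capitals mark the GC box, searched as GGGCGG or CCGCCC.
Col18a1: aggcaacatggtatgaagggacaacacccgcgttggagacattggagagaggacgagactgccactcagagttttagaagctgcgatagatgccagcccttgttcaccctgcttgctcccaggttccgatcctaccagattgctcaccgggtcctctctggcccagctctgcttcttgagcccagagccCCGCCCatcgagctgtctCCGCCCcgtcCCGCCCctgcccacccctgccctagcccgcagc
Col6a4: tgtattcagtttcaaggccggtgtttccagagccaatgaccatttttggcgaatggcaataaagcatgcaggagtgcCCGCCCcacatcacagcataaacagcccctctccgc
The Col18a1 stretch, 250 bases with 62% G or C, held 3 GC boxes, and the Col6a4 stretch of 113 bases with 52.2% G or C held 1. The full windows, on which the shares below were counted, held 3 and 2, so 1 box of the Col6a4 window lies in bases not printed. RefSeq lists a second start for Col18a1, at chr10:77113656-77113955, and its window had none. Of 38 promoter windows that matched 35 collagen genes, 60.5% held a GC box, against 35.7% of all 32851 windows of the same length in the table. The letters TATAAA were found in 13.2% of the collagen windows and 13.6% of all, both strands counted. The ETS core CCGGAA was in 0 of the 38 and in 14.9% of all, and AACAAT, a core bound by SOX factors, in 1 of the 38 and 3521 of the 32851. None of the motifs searched overlapped another in the stretches printed. These are matches of letters in short windows and describe no binding.

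No chain of the collagen IV network was called without the block. Col4a1 and Col4a2, whose products wind together into the main network of vascular basement membranes, had similar profiles over the arrays. Col4a1 stood at 6.07 and 4.56 on the ACKR4-negative arrays and at 5.86 and 3.79 on the ACKR4-positive arrays. Col4a2 stood at 4.89 and 3.51 on the ACKR4-negative arrays and at 4.58 and 2.75 on the ACKR4-positive arrays. For both genes the groups overlapped and the array of sort 1 was the higher one in each group. The log2 differences were -0.49 ± 0.89 (95% interval -2.85 to 1.87) and -0.54 ± 0.80 (-2.66 to 1.59), and neither was called. With the sort as a block the intervals narrowed to -1.12 to 0.13 for Col4a1 and -1.13 to 0.06 for Col4a2, and still neither was called. All these intervals lie above the one of Col18a1. The direction of both small differences turned without the ACKR4-negative array of sort 1 (0.26 and 0.16) or the ACKR4-positive array of sort 2 (0.54 and 0.38).

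Col4a5 encodes a collagen IV chain that forms networks with the collagen IV chains of Col4a3 and Col4a4 or with that of Col4a6. Its levels were 0.82 and 0.05 on the ACKR4-negative arrays and 2.40 and 1.36 on the ACKR4-positive arrays. The ACKR4-positive arrays lay above both ACKR4-negative arrays. The log2 difference of 1.45 ± 0.50 was not called (adjusted p = 0.264), but was called with the sort as a block (adjusted p = 0.0129; 95% interval 0.89 to 2.01), and it was 1.59 in sort 1 and 1.31 in sort 2. The X-linked neighbour Col4a6, which is read in the opposite direction, lay between -2.50 and -2.25 on all 4 arrays, with a log2 difference of -0.05 ± 0.28 that was not called. A second Col4a6 probe gave 0.96 ± 0.65, which was not called either. Col4a4 had a difference of 0.45 ± 0.47 with overlapping groups. Its neighbour Col4a3 and the collagen XV gene Col15a1 were not well above background on any array.

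The stretches before Col4a6 and Col4a5 are shown because the genes start next to each other and had these unlike values. They are again outside any annotated gene on GRCm38.p6, Col4a6 on the minus strand at chrX:141474096-141474326 and Col4a5 on the plus strand at chrX:141475169-141475369.
Col4a6: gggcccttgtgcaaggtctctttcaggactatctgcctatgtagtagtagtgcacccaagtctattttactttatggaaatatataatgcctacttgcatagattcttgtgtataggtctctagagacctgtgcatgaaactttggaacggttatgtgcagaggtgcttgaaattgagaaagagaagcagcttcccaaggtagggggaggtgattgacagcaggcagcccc
Col4a5: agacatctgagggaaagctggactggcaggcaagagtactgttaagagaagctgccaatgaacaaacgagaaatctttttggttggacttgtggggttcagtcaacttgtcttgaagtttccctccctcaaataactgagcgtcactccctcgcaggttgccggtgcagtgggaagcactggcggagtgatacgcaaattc
Neither stretch, 231 and 201 bases with 45.5% and 49.8% G or C, held any of the motifs searched, so neither carries capitals. The full window of each gene held 1 GC box, in bases not printed. Whether the difference of Col4a5 exceeds that of Col4a6 was not tested.

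Of the 6 tested basement membrane genes, 1 was called and 5 were not. The median log2 difference of the 6 was -0.27, beside 0.04 over all tested genes. It was 0.17 without the ACKR4-negative array of sort 1 and 0.15 without the ACKR4-positive array of sort 2.

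Fibrillar collagens gave 1 called gene, Col5a2, and its partner chain Col5a1 had the opposite sign. Col5a2 and Col5a1 encode the chains of the common form of collagen V, which sets the width of fibrils. Col5a2 stood at -6.00 and -5.82 in ACKR4-negative cells, on neither array well above background, and at -2.88 and -3.59 in ACKR4-positive cells, where both arrays were. Col5a2 rose by 2.67 ± 0.36 in log2 signal (adjusted p = 0.0278), at least 5.05-fold. That bound sets the dim arrays at the lowest level well above background on each, or at the gene's own level where that is higher. The call was lost with normexp background correction (0.86, adjusted p = 0.193) and without either ACKR4-negative array or the ACKR4-positive array of sort 1 (adjusted p = 0.119, 0.0946 and 0.0706).

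Col5a1 stood at -1.46 and -2.44 on the ACKR4-negative arrays and at -3.41 and -4.88 on the ACKR4-positive arrays, the last not well above background. Both ACKR4-positive arrays lay below both ACKR4-negative arrays. The log2 difference of -2.19 ± 0.64 was not called (adjusted p = 0.184), but was called lower with the sort as a block (adjusted p = 0.0043; 95% interval -2.80 to -1.59). The chains of collagen V thus had differences of opposite sign in both sorts, 3.12 and 2.23 for Col5a2 and -1.95 and -2.44 for Col5a1. Whether the 2 differences differ from each other was not tested.

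Col3a1 encodes the only chain of collagen III, the fibril of reticular fibres, and lies next to Col5a2 on chromosome 1. Its levels were -3.18 and -1.48 on the ACKR4-negative arrays and -0.85 and -0.39 on the ACKR4-positive arrays. The ACKR4-positive arrays lay above the ACKR4-negative ones, whose own 2 values were 1.69 apart. The log2 difference of 1.71 ± 0.64 was not called (adjusted p = 0.300), but was with the sort as a block (adjusted p = 0.0326). Both neighbours were thus higher in ACKR4-positive cells in both sorts, and Col5a2 was the one called without the block.

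The collagen I genes showed no call by either fit. Col1a1 encodes the chain that is present as a pair in each collagen I molecule. It stood at -3.21 and -1.76 on the ACKR4-negative arrays and at -1.80 and -3.29 on the ACKR4-positive arrays, and its log2 difference was 1.41 in sort 1 and -1.54 in sort 2. The mean difference of -0.06 ± 0.74 therefore joins opposite values and has a 95% interval of -2.02 to 1.89. Col1a2, the partner chain, had a difference of -0.67 ± 0.36 with the ACKR4-positive arrays below the ACKR4-negative ones. Col27a1, a fibrillar chain of cartilage and other tissues, stood at -2.01 ± 1.11 with overlapping groups and a dim ACKR4-positive array in sort 2. Of the 11 fibrillar genes, Col2a1, Col5a3, Col11a1, Col11a2 and Col24a1 were not tested. The median over the 6 tested was -0.37, and -0.065 with the filter that asks for signal on all 4 arrays. It was -0.91 without the ACKR4-negative array of sort 1 and -0.75 without the ACKR4-positive array of sort 1, but 0.18 and 0.11 without the ACKR4-negative or the ACKR4-positive array of sort 2.

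**Figure D2:**
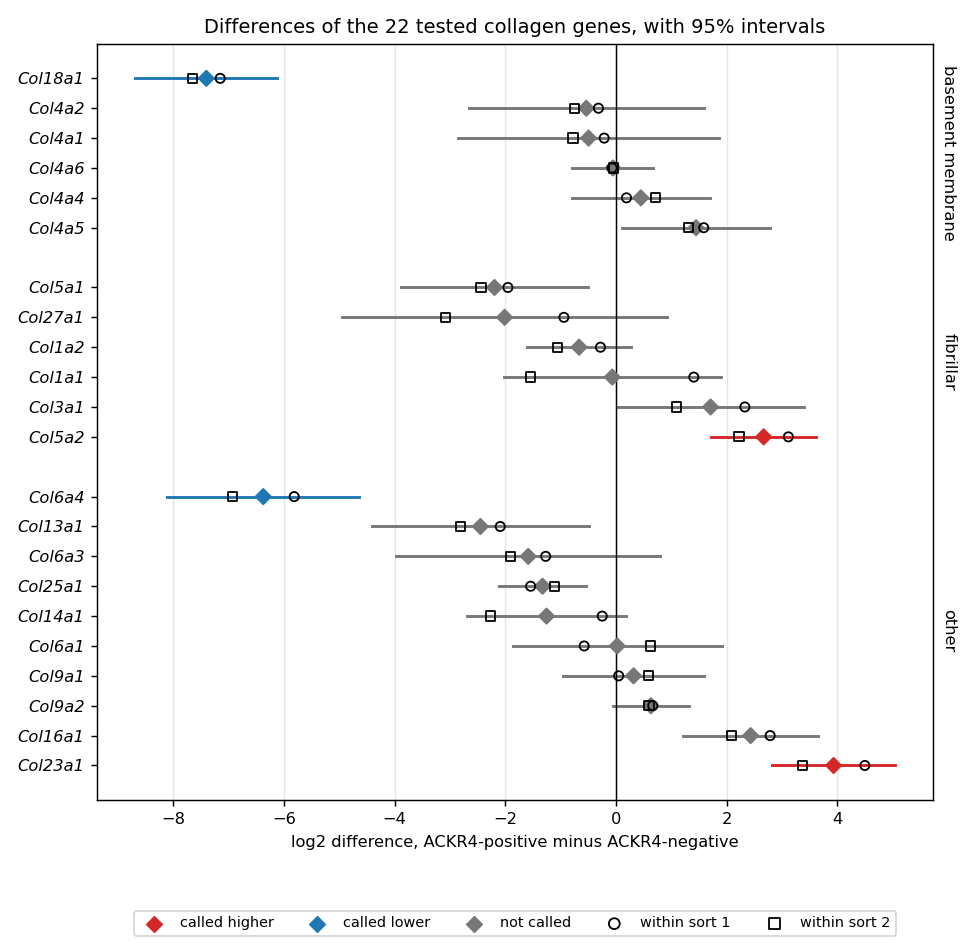
Log2 difference of ACKR4-positive minus ACKR4-negative cells for the 22 tested collagen genes, with the 95% interval of the fit as a bar and the differences within sort 1 (open circle) and sort 2 (open square). The 2 genes in red were called higher and the 2 in blue lower; the within-sort marks of Col1a1 lie on opposite sides of 0, at 1.41 and -1.54.

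The collagen VI chains form beaded filaments that link cells to the matrix around them. Col6a4, a chain of a later-described branch of this family, stood at 2.49 and 1.90 on the ACKR4-negative arrays and at -3.32 and -5.03 on the ACKR4-positive arrays, of which 1 of 2 was well above background. The groups lay far apart in both sorts. Col6a4 fell by 6.37 ± 0.66 in log2 signal (adjusted p = 0.0163), and no fold is given because only 1 of the 2 ACKR4-positive arrays measured it. The difference was -5.00 with normexp background correction and -5.13 with the mean of the tested probes. The probe maps to chromosome 9, 105893016 to 105893075 (mm9). A second probe at 105974495 to 105974554 gave -3.89 ± 0.48, with both ACKR4-positive arrays not well above background and a floored fold of 4.09. With the filter that asks for signal on all 4 arrays, Col6a4 was not tested.

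The classical chains of collagen VI were not called without the block. Col6a1 had a log2 difference of 0.02 ± 0.71, made of -0.57 in sort 1 and 0.62 in sort 2. Col6a3 stood at -4.93 and -2.80 on the ACKR4-negative arrays and at -6.19 and -4.70 on the ACKR4-positive arrays, the first of the latter not well above background. The groups overlapped, sort 2 was higher in both, and the difference of -1.59 ± 0.90 was not called (adjusted p = 0.531). Within sorts the difference of Col6a3 was -1.27 and -1.90, and it was called lower with the sort as a block (adjusted p = 0.0154). Col6a2, Col6a5 and Col6a6 were not tested, although Col6a5 lies next to Col6a4 on chromosome 9.

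Of the genes that mark other cells, those of platelets, mural cells and fibroblastic reticular cells mostly had lower levels in ACKR4-positive cells. For comparison, 1.91% of all tested genes were called higher by limma and 3.71% lower. At an unadjusted p under 0.05 these shares were 7.12% and 9.13%, and with the sort as a block 6.75% and 8.55%. Of 10 megakaryocyte and platelet markers, all tested, 8 were called lower, and their summed signal was 101 and 231 times the array's 75th percentile in ACKR4-negative and 0.97 and 2.52 times in ACKR4-positive cells. The block gave 9 called lower. Of these, Itga2b, Gp5 and Tubb1 were not well above background on either ACKR4-positive array. Of the 10 in the list, 5 were well above background on all 4 arrays. Of 10 mural cell markers 9 were tested and 4 called lower, or 8 with the block, with sums of 60.4 and 102 against 2.96 and 3.39. Of the 9 tested, 5 were well above background on all 4 arrays, such as Acta2 at 3.26 and 5.42 against -2.45 and 0.12. Myh11 and Cnn1 were well above background on both ACKR4-negative arrays and on neither ACKR4-positive array, and Rgs5 only on the ACKR4-negative array of sort 1.

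Of 12 markers of fibroblastic reticular cells, which make reticular fibres, 8 were tested and 0 called by limma (6 lower at an unadjusted p under 0.05), with sums of 16.6 and 19.7 against 6.16 and 6.75. Cxcl13 was well above background on both ACKR4-negative arrays and on neither ACKR4-positive array. Pdgfra was so only on the ACKR4-negative array of sort 2, and Dpt on none of the 4. Of the 8 tested, 5 were well above background on all 4 arrays. With the sort as a block, 6 of the 8 were called lower. The endothelial sum was 514 and 450 against 309 and 279. Of the 12 endothelial markers 0 were called higher and 3 lower, beside 1.91% and 3.71% of all tested genes. The 3 were Emcn (-5.24 ± 0.87), Kdr (-2.71 ± 0.44) and Esam (-1.92 ± 0.27). Tek had a difference of 1.81 ± 0.49 and was called higher only with the sort as a block (adjusted p = 0.0061). The macrophage sum was 24.8 and 28.1 against 36.5 and 45.6, with 0 of 6 called by limma (1 lower at an unadjusted p under 0.05). That sum mainly reads Vcam1, by far the brightest of them, with levels of 4.57 and 4.71 against 5.15 and 5.47. The median log2 difference of the 6 tested macrophage markers was -0.14. Of 6 mesothelial markers 2 were tested and 0 called (1 higher and 1 lower at an unadjusted p under 0.05), with sums of 0.07 and 0.12 against 0.09 and 0.87. In the blocked fit the endothelial list had 1 higher and 4 lower, the macrophage list 1 lower and the mesothelial list 1 higher and 1 lower. Among all tested genes 6.75% were higher and 8.55% lower in that fit. The part of any of these cells in the differences of the collagens was not tested.

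Transmembrane collagens held the largest rise of the family among the tested genes. Col23a1 encodes a membrane-anchored collagen whose outer part can be shed. It stood at -3.44 and -3.29 on the ACKR4-negative arrays and at 1.06 and 0.08 on the ACKR4-positive arrays. All 4 arrays were well above background and the groups did not overlap. Col23a1 rose by 3.94 ± 0.42 (95% interval 2.83 to 5.05; adjusted p = 0.0176), a 15.3-fold higher signal. The probe lies on chromosome 11 at 51396885 to 51396944 (mm9), and a second tested probe at 51394105 to 51394164 gave 3.33 ± 0.39. Another probe was too dim to be tested and its levels also were higher on both ACKR4-positive arrays (-5.03 and -5.37 against -6.74 and -7.50). Without the ACKR4-negative array of sort 1 the difference was 3.86 and the adjusted p was 0.0553.

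Of the other membrane-anchored collagens, Col13a1 and Col25a1 had lower values in ACKR4-positive cells and Col17a1 was not tested. Col13a1, a collagen of cell adhesion sites, stood at -2.67 and -3.74 on the ACKR4-negative arrays and at -4.76 and -6.55 on the ACKR4-positive arrays, the last not well above background. The ACKR4-positive arrays lay below the ACKR4-negative ones. The log2 difference of -2.45 ± 0.74 was not called (adjusted p = 0.200), but was with the sort as a block (adjusted p = 0.0043). Col25a1, known from amyloid plaques and motor nerves, stood at -4.18 and -4.59 in ACKR4-negative cells and at -5.72 and -5.71 in ACKR4-positive cells, where neither array was well above background. Its difference of -1.33 ± 0.29, a floored fold of 2.19, had an adjusted p of 0.0968, and of 0.0202 with the sort as a block. It rests on 1 of 4 Col25a1 probes, since the other 3 were too dim to be tested. Col17a1, a collagen of epithelial attachment, was not well above background on any array.

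The glycine repeat can be read in a few of the 67 collagen probes. The search asked for at least 4 glycines at 1 place of the triplet. Among the probes that stand for a gene, it found this only in that of Col13a1. The probe that stands for Col13a1 lies on chromosome 10 between 61330216 and 61330585 (mm9), a span longer than its 60 bases. A second tested probe of Col14a1 lies on chromosome 15 at 55347733 to 55347792, and a dim probe of Col16a1 on chromosome 4 at 129756457 to 129756516. Capitals mark the codons of glycine in the reading frame without a stop that holds the most of them at 1 place of the triplet.
Col13a1: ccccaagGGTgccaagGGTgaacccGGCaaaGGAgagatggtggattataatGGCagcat
Col14a1: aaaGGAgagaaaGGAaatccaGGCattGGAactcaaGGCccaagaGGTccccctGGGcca
Col16a1: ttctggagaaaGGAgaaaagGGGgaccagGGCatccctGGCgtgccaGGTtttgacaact
The Col13a1 probe holds 5 such codons of 19, and 4 of the 5 are at the same place of the triplet. The Col14a1 probe holds 7 of 20, with 4 of the 7 at 1 place. The Col16a1 probe holds 5 of 19, all at the same place. Dim probes of Col15a1 and Col25a1, not printed, each hold 6 of 19, all at 1 place. Which exons the other collagen probes read was not analysed here.

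Collagens that sit on the surface of fibrils, with interrupted helices, gave 0 genes called by limma of 4 tested, and 1 higher at an unadjusted p under 0.05. Col16a1, a minor collagen of this kind, stood at -0.71 and -1.09 on the ACKR4-negative arrays and at 2.08 and 0.99 on the ACKR4-positive arrays. The ACKR4-positive arrays lay above the ACKR4-negative ones in both sorts. The log2 difference of 2.44 ± 0.46 missed the threshold (adjusted p = 0.0655) and was called with the sort as a block (adjusted p = 0.0043). A second tested probe gave 2.49 ± 0.41, with an adjusted p of 0.0445 in the fit over all tested probes, where the representative probe had 0.0642. The 2 others, among them the one printed above, were too dim to be tested.

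Col14a1, which binds the surface of collagen I fibrils, had a difference of -1.25 ± 0.54 from its representative probe and of 0.04 ± 0.62 from the one printed above, and neither was called. Its probes thus disagree in size, and the level in ACKR4-positive cells of sort 2 was not well above background for the first. Col9a1 and Col9a2, chains of the cartilage collagen IX, had differences of 0.32 ± 0.48 and 0.63 ± 0.26. Neither was called, and Col9a2 was higher on both ACKR4-positive arrays (-4.15 and -4.18 against -4.82 and -4.78). Col9a3, Col12a1, Col19a1, Col20a1 and Col22a1 were not tested.

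**Figure D3:**
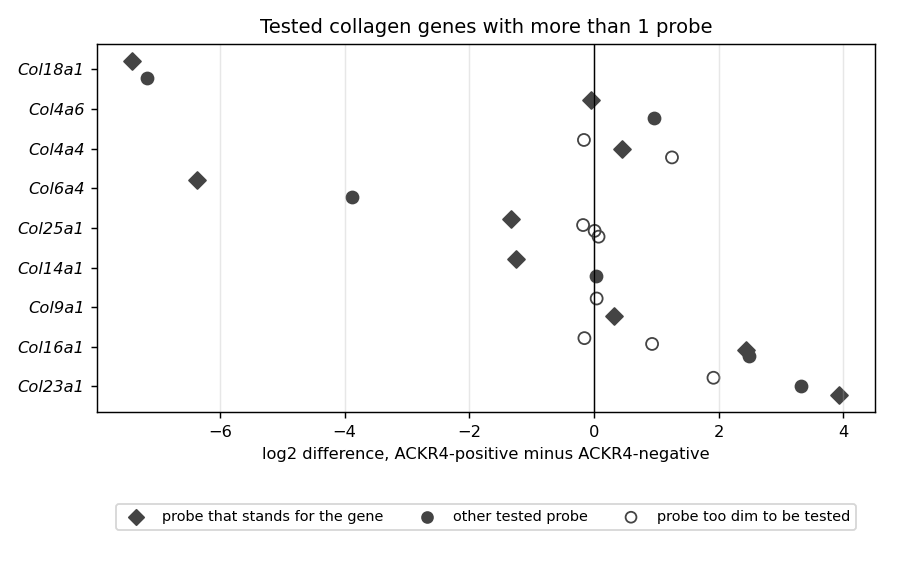
Log2 difference of ACKR4-positive minus ACKR4-negative cells for every probe of the tested collagen genes that have more than 1 probe. Diamonds mark the probe that stands for the gene, filled circles other tested probes and open circles probes too dim to be tested; the 2 tested probes of Col18a1 (-7.40 and -7.18) and of Col16a1 (2.44 and 2.49) lie close together, and those of Col6a4 (-6.37 and -3.89) do not.

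Of the 24 other collagens, 10 were tested, 1 was called higher and 1 lower, and the median difference of the 10 was -0.62. Over the 5 of them that were well above background on all 4 arrays it was 0.63. The median of all 22 was -0.28, and over the 14 above background on all 4 arrays it was 0.17. A collagen dim in 1 group enters with a difference that its background limits. The short-chain collagens of hexagonal networks, Col8a1, Col8a2 and Col10a1, were not tested, nor were Col7a1 of anchoring fibrils and Col28a1. Col21a1 and Col26a1 had no probe that carried their names in that form. A probe whose older name now stands for Col26a1 was not tested, with levels of -5.34 and -4.61 on the ACKR4-negative arrays and -5.87 and -4.98 on the ACKR4-positive arrays.

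Across the 22 tested collagens, 8 were higher in ACKR4-positive cells in both sorts, 12 were lower in both, and Col1a1 and Col6a1 had opposite signs. Over all tested genes 38.6% were higher and 34.5% lower in both sorts, together 73.1%. The ACKR4-positive arrays lay wholly above the ACKR4-negative arrays for 6 collagens and wholly below for 7, and the groups overlapped for 9. Over all tested genes the groups did not overlap for 44.9%, with 23.3% above and 21.6% below.

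Between the sorts, 9 of the 22 collagens were higher in sort 1 in both groups and 6 were lower in both. Of all tested genes 26.8% were higher and 48.1% lower in that way, together 74.9%. Col4a1 showed this with 1.51 in ACKR4-negative and 2.07 in ACKR4-positive cells, and Col4a2 with 1.38 and 1.82. Col4a5 and Col18a1 were also higher in sort 1 in both groups, whereas Col4a4 and Col4a6 were lower. Col6a3 had the reverse of the Col4a1 pattern, with -2.12 and -1.49, as did Col6a1 with -0.68 and -1.88. Of the collagens called only with the block, all but Col25a1 (0.42 and -0.01) had a difference between sorts of like sign in both groups. That was also the case for the 74.9% of all tested genes given above.

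**Figure D4:**
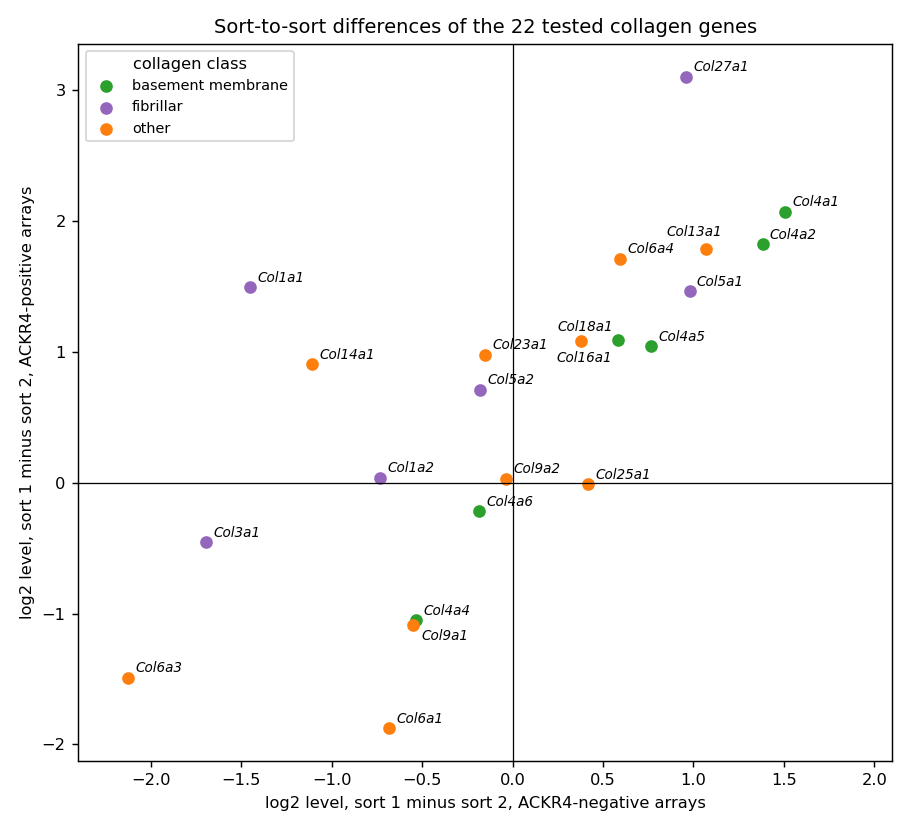
Difference in log2 level between sort 1 and sort 2 for the 22 tested collagen genes, in ACKR4-negative cells (horizontal axis) and ACKR4-positive cells (vertical axis), coloured by class. Points in the upper right, such as Col4a1 (1.51 and 2.07), were higher in sort 1 in both groups, those in the lower left, such as Col6a3 (-2.12 and -1.49), were lower, and Col1a1 (-1.45 and 1.49) differed in opposite directions.

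The machinery that makes and handles collagen was read from 5 lists of genes. The counts of each list stand beside 1.91% of all tested genes called higher by limma and 3.71% lower. At an unadjusted p under 0.05 these shares were 7.12% and 9.13%, and with the sort as a block 6.75% and 8.55%. The enzymes and chaperones of the endoplasmic reticulum that hydroxylate, glycosylate, fold and export collagen chains were all 20 tested and 0 were called by limma, with 2 higher and 2 lower at an unadjusted p under 0.05. At an adjusted p under 0.05 with the sort as a block, 2 of them were higher and 2 lower. Plod2, a lysyl hydroxylase that shapes cross-links, had the smallest p, with levels of -4.67 and -6.09 on the ACKR4-negative arrays and -1.82 and -2.80 on the ACKR4-positive arrays and a difference of 3.07 ± 0.63 (adjusted p = 0.0799; 0.0015 with the block). Colgalt2, a collagen galactosyltransferase, had a difference of -2.60 ± 0.61 (adjusted p = 0.114; 0.0139 with the block). The median over the 20 genes was -0.03.

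Outside the cell, propeptides are cut off and chains are cross-linked, and 10 of 15 such genes were tested. Of these 1 was called higher and 1 lower, beside 1.91% and 3.71% of all tested genes. Adamts2, the protease that removes the amino-terminal propeptide of fibrillar collagens, stood at -1.59 and -1.38 on the ACKR4-negative arrays and at 0.72 and 0.16 on the ACKR4-positive arrays. It rose by 1.93 ± 0.33 (adjusted p = 0.0497), but leaving out any 1 array raised the adjusted p above the threshold, to between 0.0631 and 0.248. Pxdn, peroxidasin, which cross-links the collagen IV network, stood at 3.59 and 3.66 on the ACKR4-negative arrays and at 1.80 and 1.59 on the ACKR4-positive arrays. Pxdn fell by 1.93 ± 0.27 (adjusted p = 0.0311), and here too leaving out any 1 array raised it, to between 0.0897 and 0.177. The call of Adamts2 was also lost with no filter on dim probes (adjusted p = 0.0689), with the stricter filter (0.0615) and with probes in place of genes (0.0514). In the blocked fit 1 gene of this list was higher and 2 were lower, with Bmp1, a protease that removes the carboxy-terminal propeptide, added (-1.44, adjusted p = 0.0129).

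Small leucine-rich proteoglycans, which coat fibrils, were tested for 7 of 9 genes, and 0 were called by limma, with 2 higher and 2 lower at an unadjusted p under 0.05. With the sort as a block 3 were higher and 1 lower, beside 6.75% and 8.55% of all tested genes. Aspn, asporin, stood at -4.77 and -3.07 in ACKR4-negative cells and was not well above background on either ACKR4-positive array. Its difference was -3.58 ± 0.63 (floored fold 3.37, adjusted p = 0.0549, or 0.0037 with the block). Prelp, which ties basement membranes to fibrils, was dim on both ACKR4-negative arrays and stood at -2.97 and -3.83 in ACKR4-positive cells. Its difference was 2.06 ± 0.41 (floored fold 4.02, adjusted p = 0.0773, or 0.0207 with the block).

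Of 12 collagen receptors 8 were tested, 0 were called higher by limma and 2 lower, against 1 and 3 at an unadjusted p under 0.05. Among all tested genes the shares were 1.91% and 3.71%, against 7.12% and 9.13%. Gp6, the collagen receptor of platelets, stood at 0.09 and 1.17 in ACKR4-negative cells and was not well above background in ACKR4-positive cells. Gp6 fell by 7.37 ± 0.55 (adjusted p = 0.0103), a floored fold of 78.9, beside the platelet markers given above, and by 4.16 with normexp background correction. Ddr1, a receptor kinase for collagen, stood at -4.02 and -3.07 in ACKR4-negative cells and was likewise dim in ACKR4-positive cells. Ddr1 fell by 3.21 ± 0.41 (floored fold 4.37, adjusted p = 0.0252). Its call was lost with normexp background correction (-0.88, adjusted p = 0.335) and without the ACKR4-negative array of sort 2, the ACKR4-positive array of sort 1 or the ACKR4-positive array of sort 2 (adjusted p = 0.0710, 0.0791 and 0.0563). With the sort as a block 2 receptors were called higher and 3 lower.

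Of 16 genes of collagen breakdown and its inhibitors 11 were tested. Here 1 was called higher and 1 lower, beside 1.91% and 3.71% of all tested genes. Mmp16, a membrane-anchored metalloproteinase, was not well above background in ACKR4-negative cells and stood at -4.03 and -4.88 in ACKR4-positive cells. Mmp16 rose by 2.96 ± 0.38 (floored fold 2.17, adjusted p = 0.0255). Timp4, an inhibitor of metalloproteinases, stood at -3.30 and -2.27 in ACKR4-negative cells and was not well above background in ACKR4-positive cells. Timp4 fell by 2.82 ± 0.44 (floored fold 6.65, adjusted p = 0.0399).

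Both calls were lost with normexp background correction (0.62, adjusted p = 0.385 for Mmp16; -1.16, adjusted p = 0.213 for Timp4) and without some single arrays. For Mmp16 these were both ACKR4-negative arrays and the ACKR4-positive array of sort 1 (adjusted p = 0.0967, 0.0861 and 0.0568). The Mmp16 call was also lost with the deposited values (2.19, adjusted p = 0.0516). For Timp4 they were the ACKR4-negative array of sort 2 and both ACKR4-positive arrays (adjusted p = 0.111, 0.119 and 0.0802). With the sort as a block 4 genes of this list were called higher and 2 lower.

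**Figure D5:**
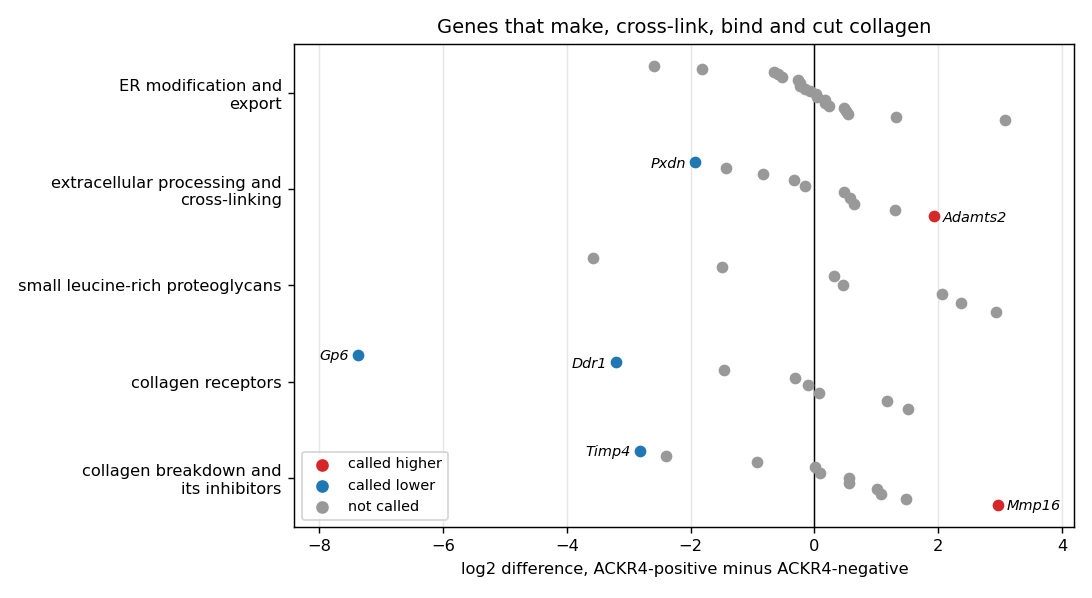
Log2 difference of ACKR4-positive minus ACKR4-negative cells for each tested gene of 5 lists that act on collagen, 1 point per gene, with vertical spread inside a list only to separate points. Called genes are named, with Adamts2 and Mmp16 in red for higher and Pxdn, Gp6, Ddr1 and Timp4 in blue for lower; the 20 genes of the endoplasmic reticulum had a median of -0.03 and 0 calls.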

How the data were processed

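RNA of 4 sorted samples, 2 ACKR4-negative and 2 ACKR4-positive, was measured on 1-colour arrays, all on 1 slide. Per the file headers, the authors' signals are intensities made with Agilent Feature Extraction 10.7.3.1; background was subtracted and spatial trends removed on each array, low values were replaced by surrogates, and arrays were not scaled to each other. The deposited value table holds intensities with a 75th percentile of 1498 to 1506 and a lowest value of 15, and it served as an alternative. The aligner and annotation behind the probe positions, which the files give on mm9, are not given in the sources used here.

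Outlier spots (non-uniform or apart from their replicates; 1.91% to 1.96% of an array) were dropped, log2 signals of up to 4 spots were averaged per probe, and the 75th percentile of the array was subtracted. Tested probes had over 50% of spots well above background on each array of 1 group or both, and the brightest tested probe stood for a gene. Probes were named through RefSeq, 27508 by accession, 3544 by symbol, 167 through another probe of the gene and 8210 by the name in the file. Groups were compared by limma 3.58.1 in R 4.3.3 (lmFit, eBayes, 2-sided), which was tested on simulated data, with Benjamini-Hochberg adjustment over 17362 genes. Figures used matplotlib 3.10.9.

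The replicate number is read as the sort, since the titles repeat a mouse number within each replicate and the design text names 2 independent sorts. Across genes, the sort 1 minus sort 2 differences of the groups correlated at 0.605. With n = 2 per group the number of arrays limits the precision. Every tested collagen is named. Of each pathway list the called genes are named, or the 2 with the smallest p where none was called. The collagens, lists and rules were chosen with earlier results of these data known.

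Alternatives were quantile normalization, centring on the median, normexp background (offset of 50), dropping or tightening the filter on dim probes, deposited values, other choices of probe, probes in place of genes, outlier spots kept, a trended prior, an adjusted p under 0.1, the sort as a replicate block, and omission of each array in turn, where the lone array of a group is assumed to vary like the other group. Running them for the named pathway genes was chosen after seeing the data. With 1 slide, no slide block could be fitted.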

Additional observations from a re-analysis of the deposited data

How the results depend on the processing

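Col18a1, Col6a4 and Gp6 kept their direction and call under every alternative that tested them, with adjusted p up to 0.0239, 0.0385 and 0.0244. The count of collagens called higher, 2 as reported, was 1 with normexp background, 1 with the stricter filter and 5 with the replicate block, and ranged from 0 to 3 when 1 array was left out. The count called lower, also 2, was 1 with the stricter filter, which did not test Col6a4, and 6 with the replicate block, and was 2 without any 1 array. The block could change no sign, because each sort gave 1 array to each group and the fitted differences are then the same. The collagens and the named pathway genes called without the block were also called with it.

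The median of the basement membrane genes moved to -0.022 with the mean of all tested probes and ranged from -0.70 to 0.17 when 1 array was left out. That of the fibrillar genes ranged from -0.91 to 0.18 when 1 array was left out. That of the other collagens was -0.21 with normexp, -0.20 with no filter, 0.48 with the stricter filter, -0.75 with the deposited values and -0.29 with the mean of tested probes, and ranged from -0.86 to -0.080 when 1 array was left out. The filters change which genes enter, and the causes of the other shifts were not tested.

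Only uncalled collagens changed sign. Median centring gave 0.0041 for Col1a1 and 0.016 for Col4a6, the stricter filter read Col14a1 from its other probe at 0.038, the deposited values gave -0.24 for Col6a1, and the mean of probes gave 0.45 for Col4a6. Leaving out 1 array gave ranges of -1.53 to 0.54 for Col4a1, -1.45 to 0.38 for Col4a2, -0.91 to 0.96 for Col6a1, -0.81 to 0.68 for Col1a1, -0.16 to 0.056 for Col4a6, -0.075 to 0.98 for Col4a4 and -0.22 to 0.86 for Col9a1. Of the values of single genes under the alternatives, 464 kept their sign and their side of the threshold, 29 lost a call, 20 gained one and 17 changed sign. With 2 arrays per group and dim signal for 16 of the 43 collagens on all 4 arrays, small differences could not be resolved.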
